A study of Mus musculus with 6 samples.

Results

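The genes described here encode the machinery that brings new secretory and membrane proteins into the endoplasmic reticulum (ER) and attaches their first sugars. They are a list of 43 gene names grouped by function, and the rule for membership uses no expression value, although the list was drawn up with earlier results of these data known. Of these, 42 had rows among the 35703 genes of the liver expression table, and all 42 were among the 14219 genes that reached a mean of 0.1 TPM and were tested. *Tusc3*, an oxidoreductase subunit of the oligosaccharyltransferase, is not analysed here. TPM (a transcript's share of its library, corrected for length) allows levels to be compared between genes, but it does not carry the number of reads, and the depth of each library is unknown.

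The libraries came from whole liver of 3 *Alb-Cre+* mice and 3 *Alb-Cre-* mice on the C57BL/6J background. All 6 were *Surf4 fl/fl*, that is, homozygous for the loxP-flanked *Surf4* allele, and the groups differed by the *Alb-Cre* transgene, in which the albumin promoter drives Cre recombinase in hepatocytes, while other liver cells keep an intact *Surf4*. Each group held a single female, its replicate 2, beside males as replicates 1 and 3. The study's general protocol collected samples after an overnight fast, and the age of the sequenced mice is not given in the sources used here.

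SURF4 is a receptor that loads cargo proteins into vesicles leaving the ER. The genes below act one step earlier. The signal recognition particle (SRP) binds a signal sequence as it leaves the ribosome and docks at its receptor, the SEC61 channel then passes the chain through the membrane, and signal peptidase removes the signal. In parallel, ALG enzymes build an oligosaccharide on the lipid dolichol, the oligosaccharyltransferase (OST) transfers it to asparagine residues, and glucosidases trim its glucoses. Hepatocytes make most plasma proteins through this route.

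*Surf4* itself was at 59.0, 71.8 and 54.3 TPM in *Alb-Cre+* mice 1, 2 and 3, and at 92.5, 94.5 and 92.5 TPM in the *Alb-Cre-* mice, which were littermate controls. The genotypes did not overlap. These values sum all listed transcripts of the gene and were not split by the exon that Cre removes. All 8 hepatocyte markers were abundant in every liver, with a summed level of 68610 to 104400 TPM, although 2 of the 8, *Apoa1* (log2 fold change -0.91, unadjusted p = 0.006455) and *Ttr* (-0.37), lay lower in every *Alb-Cre+* mouse than in any control. In contrast, 8 plasma and B cell markers, from a cell type rich in ER, summed to 7.77 to 37.7 TPM. *Xbp1* and *Derl3*, first listed with them, were left out of this sum. *Xbp1* was at 94.8, 199.5 and 76.4 TPM in the *Alb-Cre+* mice and 100.7, 107.4 and 96.3 TPM in the *Alb-Cre-* mice. *Derl3* was at 5.62, 6.25 and 14.4 TPM in the *Alb-Cre+* mice and 0.977, 0.59 and 0.822 TPM in the *Alb-Cre-* mice. The 8 Kupffer cell and macrophage markers summed to more in both female mice (760 and 710 TPM against 209.9 to 307 TPM in the male mice). RNA from a changed number of cells and a changed amount of RNA per cell cannot be told apart in bulk tissue.

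The question was whether deletion of a receptor for ER exit was accompanied by a different level of the mRNAs for ER entry. No gene of the set was called at an adjusted p under 0.01 (0 of 42), and the background was the same, with 0% of all 14219 genes called (limma, Benjamini-Hochberg adjustment). The smallest adjusted p of this fit over all genes was 0.4575, so even *Surf4* was not called. The paper, using DESeq2, reports genes that passed a false discovery rate of 0.01, with *Derl3* the most significant among those upregulated. A lack of calls here is therefore no evidence that a gene was unchanged. Every one of the 42 genes had an adjusted p of 0.9999. At an unadjusted p under 0.05, 1 gene of the set was found, *Sec11c*, which was higher in the *Alb-Cre+* mice, beside 1.75% of all genes (0.795% in that direction). Log2 fold changes (*Alb-Cre+* minus *Alb-Cre-*, on the log2(TPM + 0.1) scale) ran from -0.20 to 0.37, with 20 positive, 22 negative and a median of -0.01, where the median over all genes was also close to 0.

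The intervals show how large a difference could be for each gene taken alone. They are on TPM as deposited and are not adjusted for the number of genes. The 95% interval of the log2 fold change lay within 0.5 either side of 0 for 24 of the 42 genes (19.9% of all genes), and within 1 for 41 of them (62.5% of all genes). *Sec61a2* was the exception. None of the 42 estimates reached 0.5 in size, against 8.72% of all genes. The set was abundant, with 33 of 42 genes at a mean of 10 TPM or more (36.2% of all genes), and its median coefficient of variation across the 6 mice was 11.9% compared with 23.6% over all genes. The part of abundance in these counts was not tested.

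**Figure D1:**
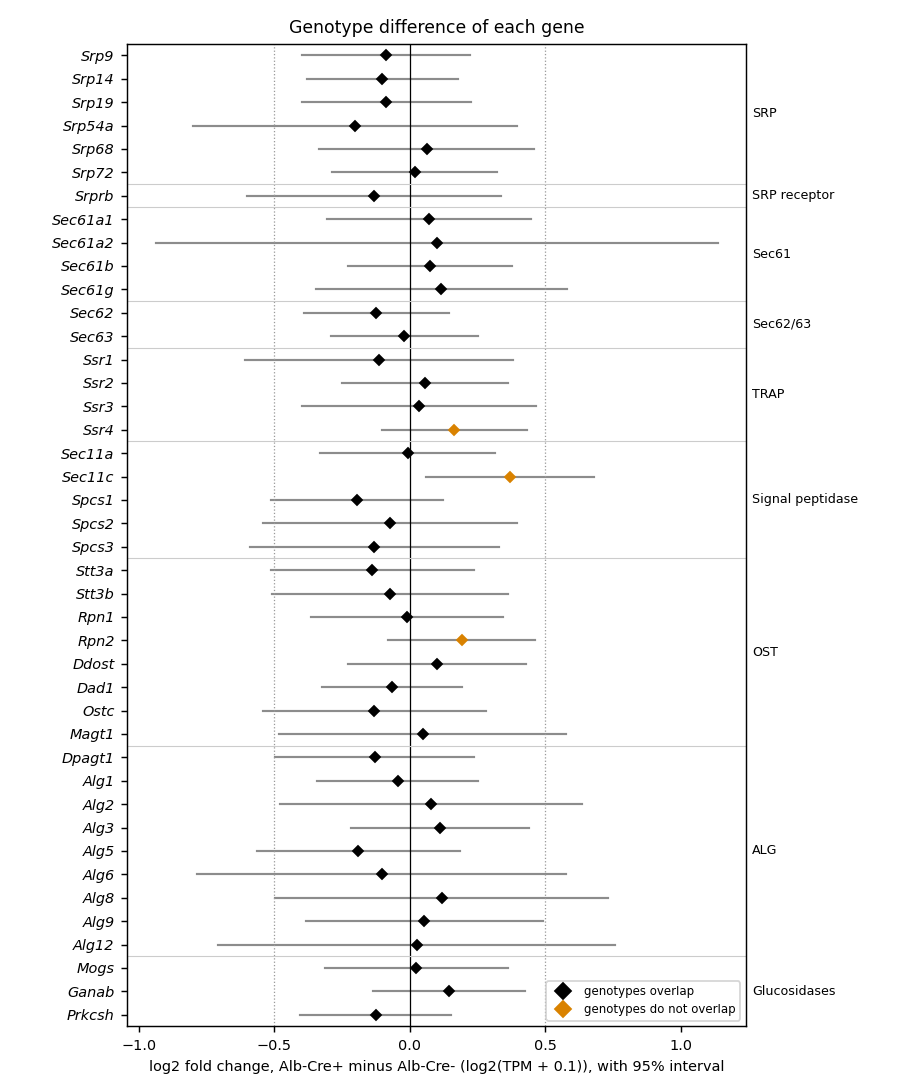
Log2 fold change of each of the 42 genes (diamonds; Alb-Cre+ minus Alb-Cre-, on log2(TPM + 0.1)) with its 95% interval (line), grouped by role. The intervals of 41 genes include 0, that of Sec11c runs from 0.06 to 0.68, and orange diamonds mark the 3 genes whose genotypes do not overlap.

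In 3 genes, *Ssr4*, *Sec11c* and *Rpn2*, every *Alb-Cre+* mouse was above every *Alb-Cre-* mouse, and in no gene of the set was the order the opposite. Over all genes 2.19% did not overlap in the higher direction and 2.71% in the lower, 4.89% together. For a single gene the smallest exact two-sided permutation p that 3 mice against 3 can give is 0.1. Lack of overlap gives this value by itself, so it adds nothing for these 3 genes.

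*Sec11c* (protein-coding, chr18:65800578-65817660, GRCm38) encodes one of the alternative catalytic subunits of signal peptidase. It was at 37.5, 33.4 and 34.8 TPM in the *Alb-Cre+* mice and 30.4, 24.4 and 27.0 TPM in the *Alb-Cre-* mice. The lowest *Alb-Cre+* mouse was above the highest control, and the means were 35.2 ± 2.06 against 27.3 ± 3.02 TPM (SD, n = 3). The same-numbered pairs differed by 0.30, 0.45 and 0.36 on the log2 scale, all positive because the genotypes did not overlap (log2 fold change 0.37, SE 0.13, 95% interval 0.06 to 0.68, unadjusted p = 0.0257). In the fit with a replicate block the unadjusted p was 0.01132 and the adjusted p was 0.7933 (limma), where 4.68% of all genes had an unadjusted p under 0.05 compared with 1.75% without the block. The unadjusted p passed 0.05 only while *Alb-Cre+* replicate 1 and *Alb-Cre-* replicates 2 and 3 were all kept. Without them, one at a time, it was 0.09838, 0.08173 and 0.06581.

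The alternative catalytic subunit, *Sec11a*, was at 40.8, 45.5 and 35.0 TPM in the *Alb-Cre+* mice and 40.3, 42.9 and 38.2 TPM in the *Alb-Cre-* mice (log2 fold change -0.01, SE 0.14). Its genotypes overlapped throughout. The ratio of *Sec11c* to *Sec11a* was 0.918, 0.735 and 0.994 in the *Alb-Cre+* mice and 0.756, 0.570 and 0.706 in the *Alb-Cre-* mice, so the ratio of *Alb-Cre+* mouse 2 lay below that of *Alb-Cre-* mouse 1 (exact permutation p = 0.2, two-sided). Of the *Sec11c* level, 93.4 to 96.4% came from a single transcript in every mouse.

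*Ssr4* (protein-coding, chrX:73787023-73790828), the delta subunit of the translocon-associated protein (TRAP) complex that sits beside SEC61, was the most abundant gene of the set. It was at 178, 183 and 168 TPM in the *Alb-Cre+* mice and 162, 167 and 144 TPM in the *Alb-Cre-* mice, with means of 177 ± 7.41 against 158 ± 12.2 TPM (SD, n = 3). Its lowest *Alb-Cre+* mouse, replicate 3, was barely above the highest control (log2 fold change 0.17, SE 0.11, 95% interval -0.10 to 0.43, unadjusted p = 0.1901).

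*Rpn2* (protein-coding, chr2:157279098-157326318), ribophorin II of the OST, was at 74.2, 73.3 and 74.0 TPM in the *Alb-Cre+* mice and 71.8, 62.0 and 60.6 TPM in the *Alb-Cre-* mice, with means of 73.8 ± 0.493 against 64.8 ± 6.08 TPM (SD, n = 3). The *Alb-Cre+* mice were nearly alike, and *Alb-Cre-* mouse 1 came close to them (log2 fold change 0.19, SE 0.11, 95% interval -0.08 to 0.46, unadjusted p = 0.1379). *Rpn1*, its partner ribophorin I, was at 35.9, 40.2 and 28.6 TPM in the *Alb-Cre+* mice and 35.2, 34.4 and 34.8 TPM in the *Alb-Cre-* mice, and there the genotypes overlapped (log2 fold change -0.01, SE 0.15).

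**Figure D2:**
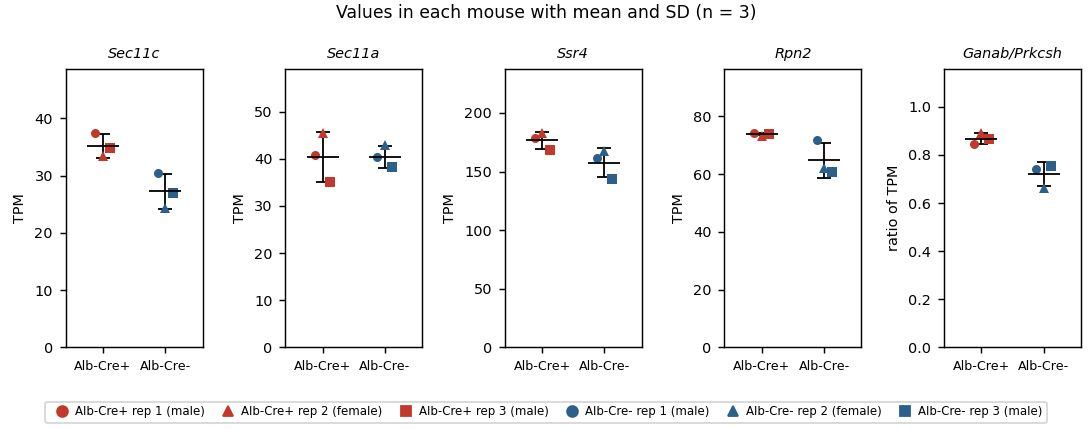
TPM in each mouse for Sec11c, its alternative Sec11a, Ssr4 and Rpn2, and the ratio of Ganab to Prkcsh, with the mean (wide bar) and SD (n = 3) per genotype on axes that start at 0. The genotypes are separate in every panel but that of Sec11a.

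These separations depended on the scaling of the libraries. When TPM was rescaled by the median of ratios over genes, with factors from 0.847 to 1.208, *Sec11c* became 38.2, 27.7 and 41.0 TPM in the *Alb-Cre+* mice and 30.6, 22.6 and 29.0 TPM in the controls. Mouse 2 of the *Alb-Cre+* group then lay within the control range, and the same mouse lay within or below the control range of *Ssr4* (182, 151 and 199 against 163, 155 and 155 TPM) and *Rpn2* (75.8, 60.7 and 87.4 against 72.2, 57.5 and 65.1 TPM). The log2 fold change of *Sec11c* stayed at 0.37 (unadjusted p = 0.1025). On that scale 2 other genes did not overlap, *Sec61a1* in the higher direction (log2 fold change 0.07) and *Stt3a* in the lower (-0.14), beside 5.69% of all genes.

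The same-numbered mice showed where the scaling acted. The median difference over the 42 genes was -0.01 in pair 1, 0.15 in pair 2 and -0.17 in pair 3, with 20, 32 and 7 genes positive. Over all tested genes it was -0.02, 0.15 and -0.14. The medians of the set and of the whole table thus lay close together in each pair, and after rescaling those of the set were 0.02, -0.01 and -0.03. The summed level of the 42 genes was 1809, 1933 and 1565 TPM in the *Alb-Cre+* mice and 1747, 1818 and 1753 TPM in the *Alb-Cre-* mice, so *Alb-Cre+* mice 2 and 3 were the highest and the lowest of the 6.

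**Figure D3:**
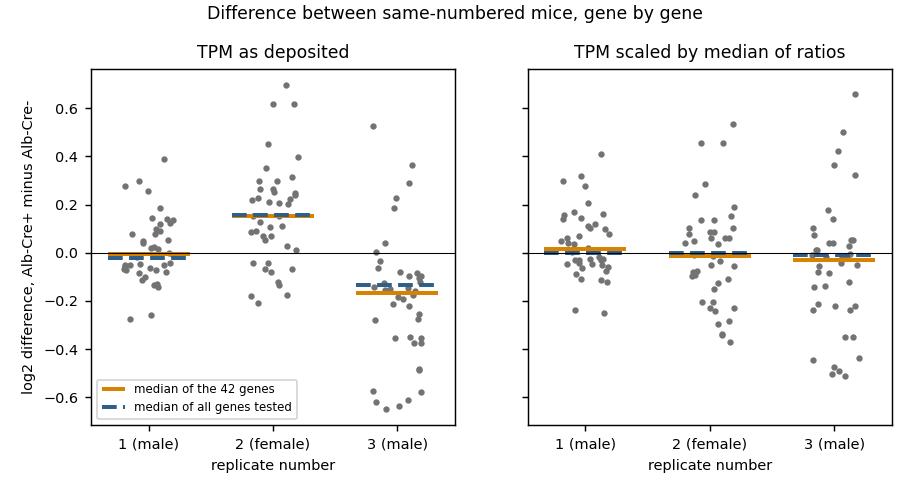
Log2 difference of each of the 42 genes between the same-numbered Alb-Cre+ and Alb-Cre- mice (grey points), as deposited (left) and after median of ratios scaling (right), with the medians of the set (orange) and of all tested genes (dashed blue). As deposited, both medians lie above 0 in pair 2 and below 0 in pair 3. After scaling they lie close to 0, which for the median of all tested genes follows from the scaling itself.

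In TPM as deposited, the direction was shared by all 3 pairs in 13 genes of the set. There were 5 higher (*Ssr4*, *Sec11c*, *Rpn2*, *Ganab* and *Alg3*) and 8 lower (*Srp14*, *Srp19*, *Srp54a*, *Sec62*, *Spcs1*, *Dad1*, *Alg5* and *Prkcsh*). For *Ssr4*, *Sec11c* and *Rpn2* it was fixed by their lack of overlap. The same held for 23.9% of all genes, 11.5% higher and 12.4% lower. Apart from *Sec11c*, none of the 13 had an unadjusted p under 0.05 (limma). After median of ratios scaling, *Ssr4*, *Srp14*, *Sec62* and *Dad1* no longer shared a direction, while *Ssr1*, *Sec61a1*, *Stt3a*, *Stt3b* and *Dpagt1* did. The share of all genes was not computed on that scale.

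Among the 6 SRP genes, 2 had a positive and 4 a negative difference, with a median of -0.09, and none separated the genotypes. *Srp54a*, the GTPase subunit that binds the signal sequence, was at 31.4, 40.5 and 21.4 TPM in the *Alb-Cre+* mice and 32.6, 42.4 and 30.0 TPM in the *Alb-Cre-* mice (log2 fold change -0.20, SE 0.25). *Alb-Cre+* mouse 3 was the lowest of all and both female mice were the highest. Reads of this gene cannot be assigned firmly, since 72.5% of the 31-base stretches in its annotated transcripts also occur in those of other genes, led by *Srp54b* and *Srp54c*, and the value rests on how the authors' quantification split them. *Srp68*, whose product pairs with SRP72 on the RNA of the particle, was at 24.7, 26.4 and 19.4 TPM in the *Alb-Cre+* mice and 25.6, 21.5 and 20.3 TPM in the *Alb-Cre-* mice (log2 fold change 0.06, SE 0.17), with overlapping groups.

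*Srp9* and *Srp14*, whose products form the domain that slows translation during targeting, were the most abundant of the particle, with means over the 6 mice of 70.4 and 61.4 TPM. Their ranges overlapped, and *Srp14* was above *Srp72* (35.3 TPM) in all 6 mice. Of the *Srp9* stretches, 18.7% are shared with other genes, led by unnamed gene models, compared with 0.2% for *Srp14*. *Srp19* (30.3 TPM), *Srp54a* (33.1 TPM) and *Srp72* overlapped in range. *Srprb*, the membrane-anchored subunit of the SRP receptor, was at 8.35, 9.70 and 6.23 TPM in the *Alb-Cre+* mice and 9.17, 8.31 and 8.75 TPM in the *Alb-Cre-* mice (log2 fold change -0.13, SE 0.20), with *Alb-Cre+* mice at both ends of the range. Other genes share 21.8% of the *Srprb* stretches. *Srpr*, the other receptor subunit, had means of 98.5 and 98.7 TPM.

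All 4 genes of the SEC61 channel had small positive differences, from 0.07 to 0.12, with a median of 0.09 and overlapping genotypes. With a mouse left out, the sign of *Sec61a1* (-0.07 to 0.19) and of *Sec61a2* (-0.22 to 0.45) was not kept. *Sec61a1*, the pore-forming subunit, was at 47.0, 59.2 and 41.4 TPM in the *Alb-Cre+* mice and 44.2, 50.8 and 44.4 TPM in the *Alb-Cre-* mice (log2 fold change 0.07, SE 0.16). *Sec61b*, a small subunit beside the pore, was at 130.4, 127 and 106 TPM in the *Alb-Cre+* mice and 119.8, 106 and 118 TPM in the *Alb-Cre-* mice (log2 fold change 0.08, SE 0.13). In both genes *Alb-Cre+* mouse 3 was below or close to the lowest control. *Sec61b* exceeded *Sec61a1* in every mouse, by a ratio of 2.49 in the means of both genotypes, and 23.5% of the *Sec61b* stretches are shared with other genes, most of them unnamed gene models.

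*Sec61g*, the remaining subunit of the trimer, averaged 8.22 TPM. *Sec61a2*, a second pore gene, was the least abundant gene of the set, at 1.09, 2.75 and 1.73 TPM in the *Alb-Cre+* mice and 1.33, 2.70 and 1.17 TPM in the *Alb-Cre-* mice. Both female mice were highest, at 2.75 and 2.70 TPM, above a male range of 1.09 to 1.73 TPM, and the genotypes overlapped (log2 fold change 0.10, SE 0.44, 95% interval -0.94 to 1.14). Its stretches were shared with other genes in 19.9%, led by the neighbouring *Nudt5*.

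*Sec62* and *Sec63* assist the channel with chains that arrive after translation, SEC63 by recruiting the chaperone BiP. *Sec62* was at 50.9, 54.1 and 50.2 TPM in the *Alb-Cre+* mice and 53.5, 61.3 and 54.7 TPM in the *Alb-Cre-* mice (log2 fold change -0.12, SE 0.11). Only one *Alb-Cre+* mouse, replicate 2, reached into the control range. *Sec63* was at 35.0, 39.5 and 39.3 TPM in the *Alb-Cre+* mice and 37.1, 38.0 and 40.2 TPM in the *Alb-Cre-* mice (log2 fold change -0.02, SE 0.12), and its spread across the 6 mice, 4.98% of the mean, was among the smallest of the set.

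The TRAP genes spanned an order of magnitude, although their products form one complex. *Ssr4* averaged 167 TPM, *Ssr2* 83.8 TPM, *Ssr3* 83.1 TPM and *Ssr1* 16.6 TPM. *Ssr2* and *Ssr3* could not be ordered, while *Ssr4* was above both and *Ssr1* below both in all 6 mice. *Ssr1*, the alpha subunit, was at 15.9, 20.3 and 12.1 TPM in the *Alb-Cre+* mice and 16.5, 19.1 and 15.7 TPM in the *Alb-Cre-* mice (log2 fold change -0.11, SE 0.21), with *Alb-Cre+* mice 2 and 3 at the extremes. The ratio of *Ssr4* to *Ssr1* was 11.2, 9.00 and 13.9 in the *Alb-Cre+* mice and 9.82, 8.76 and 9.16 in the *Alb-Cre-* mice (exact permutation p = 0.3, two-sided), so the groups overlapped.

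In signal peptidase, *Sec11c* stood beside 4 genes with negative differences. *Spcs2*, an accessory subunit, was at 116, 128 and 82.8 TPM in the *Alb-Cre+* mice and 95.9, 116 and 129.8 TPM in the *Alb-Cre-* mice (log2 fold change -0.07, SE 0.20), and pair 3 alone differed by -0.65 against 0.28 and 0.15 in pairs 1 and 2. *Spcs1*, another accessory subunit, was at 114, 133 and 111 TPM in the *Alb-Cre+* mice and 122.7, 153 and 134 TPM in the *Alb-Cre-* mice (log2 fold change -0.19, SE 0.14). There *Alb-Cre+* mouse 2 was the only one within the control range. *Spcs3*, needed for the activity of the complex, was at 18.4, 23.6 and 15.1 TPM against 19.1, 19.2 and 23.5 TPM. By level, *Spcs1* (128 TPM) and *Spcs2* (112 TPM) overlapped and were above *Sec11a* (40.4 TPM), *Sec11c* (31.2 TPM) and *Spcs3* (19.8 TPM). *Sec11a* was above *Sec11c* in all 6 mice, although the ranges of the pair overlapped.

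**Figure D4:**
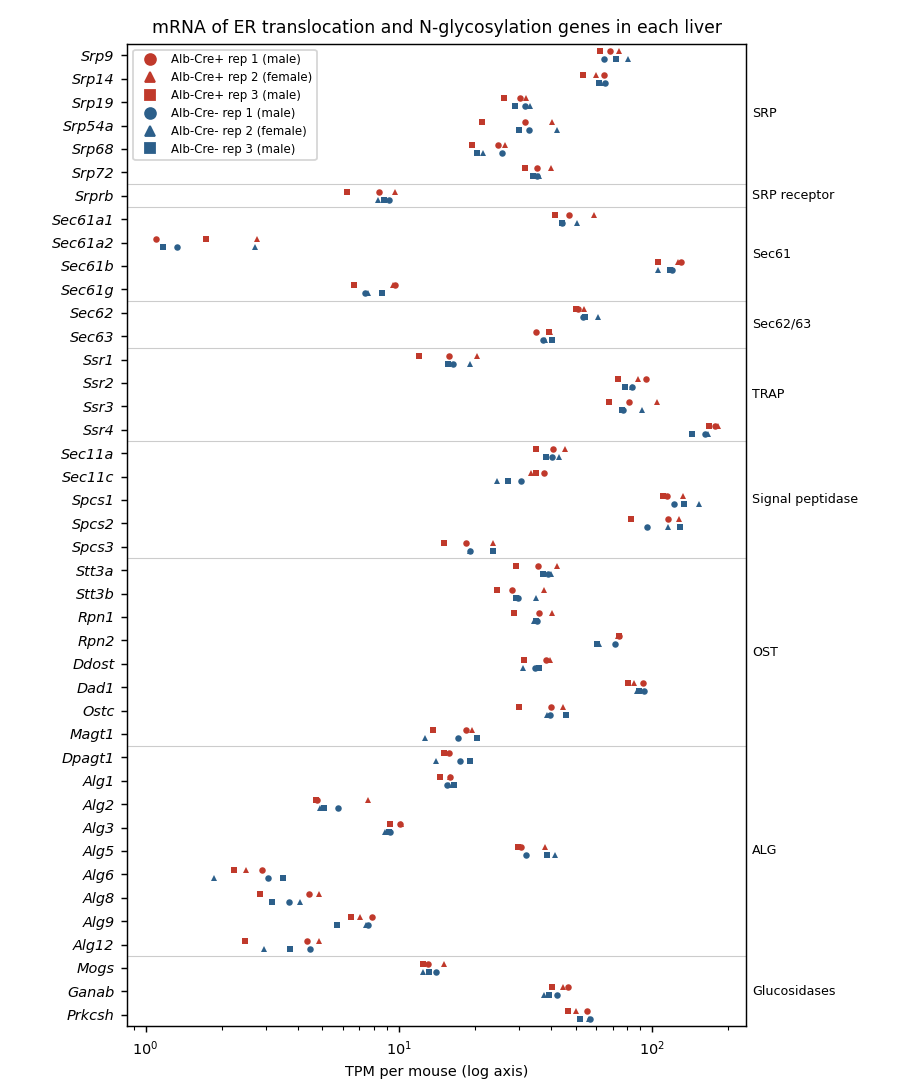
TPM of each of the 42 genes in each of the 6 mice on a log axis, grouped by role, with Alb-Cre+ mice in red and Alb-Cre- mice in blue and the replicate number as symbol. Levels run from 1.09 TPM (Sec61a2) to 183 TPM (Ssr4), and the genotypes overlap for all but Ssr4, Sec11c and Rpn2.

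The 8 measured OST genes had a median difference of -0.04, 3 positive and 5 negative. *Stt3a* and *Stt3b* are the alternative catalytic subunits, STT3A working at the translocon as the chain enters and STT3B on sites left unmodified. *Stt3a* was at 35.4, 42.2 and 29.0 TPM in the *Alb-Cre+* mice and 38.8, 40.1 and 37.1 TPM in the *Alb-Cre-* mice (log2 fold change -0.14, SE 0.16). *Stt3b* was at 28.1, 37.7 and 24.4 TPM in the *Alb-Cre+* mice and 29.5, 34.9 and 29.2 TPM in the *Alb-Cre-* mice (log2 fold change -0.07, SE 0.18). In both genes *Alb-Cre+* mouse 3 was lowest and *Alb-Cre+* mouse 2 highest. The ratio of *Stt3a* to *Stt3b* was 1.19 ± 0.0706 and 1.25 ± 0.0839 (SD, n = 3, exact permutation p = 0.4, two-sided), and *Stt3a* was the higher in all 6 mice.

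*Ddost*, a subunit of the OST core, was at 38.1, 39.6 and 31.3 TPM in the *Alb-Cre+* mice and 34.7, 30.96 and 35.8 TPM in the *Alb-Cre-* mice (log2 fold change 0.10, SE 0.14). *Dad1*, a small core subunit named for its role in cell survival, was at 92.2, 85.0 and 80.6 TPM in the *Alb-Cre+* mice and 92.9, 87.4 and 89.0 TPM in the *Alb-Cre-* mice (log2 fold change -0.07, SE 0.11). The groups overlapped in both. *Magt1*, the oxidoreductase that serves STT3B complexes, was at 18.4, 19.5 and 13.6 TPM in the *Alb-Cre+* mice and 17.1, 12.7 and 20.3 TPM in the *Alb-Cre-* mice (log2 fold change 0.05, SE 0.22), and its pairs ran in opposite directions, at 0.10, 0.62 and -0.57. *Ostc*, specific to STT3A complexes, was at 40.2, 44.6 and 30.0 TPM against 39.8, 38.7 and 45.9 TPM, again with *Alb-Cre+* mouse 3 the lowest. *Dad1* (87.8 TPM) and *Rpn2* (69.3 TPM) were the most abundant OST genes, *Ostc*, *Stt3a*, *Ddost*, *Rpn1* and *Stt3b* lay between 30.6 and 39.9 TPM without clear order, and *Magt1* was lowest at 16.9 TPM.

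The ALG enzymes were the scarcest group, with 7 of 9 genes under 16 TPM. *Dpagt1*, which attaches the first sugar to dolichol and is the target of tunicamycin, was at 15.9, 15.2 and 15.1 TPM in the *Alb-Cre+* mice and 17.6, 14.1 and 19.2 TPM in the *Alb-Cre-* mice (log2 fold change -0.13, SE 0.16). *Alg1*, which adds the first mannose, was at 16.0, 15.9 and 14.5 TPM in the *Alb-Cre+* mice and 15.6, 15.8 and 16.5 TPM in the *Alb-Cre-* mice (log2 fold change -0.04, SE 0.13). The groups overlapped in each gene, and *Alg1* had the smallest spread of the set, at 4.24% of the mean. *Alg5*, which makes the glucose donor of the pathway, was the most abundant, at 30.5, 37.9 and 29.7 TPM in the *Alb-Cre+* mice and 31.9, 41.5 and 38.5 TPM in the *Alb-Cre-* mice (log2 fold change -0.19, SE 0.16). Control mouse 1 lay within the *Alb-Cre+* range.

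The other ALG genes, which add mannoses (*Alg2*, *Alg3*, *Alg9*, *Alg12*) or glucoses (*Alg6*, *Alg8*), had differences from -0.10 to 0.12. *Alg2* was at 4.75, 7.57 and 4.71 TPM in the *Alb-Cre+* mice and 5.76, 4.90 and 5.07 TPM in the *Alb-Cre-* mice. Its female *Alb-Cre+* mouse was alone at the top. For the interaction of genotype with sex it was the only gene of the set with an unadjusted p under 0.05 (limma), against 6.06% of all genes, and 0% of all genes passed the adjusted threshold. Each genotype held a single female mouse.

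Glucosidase I, encoded by *Mogs*, was at 13.0, 15.1 and 12.5 TPM in the *Alb-Cre+* mice and 14.1, 12.5 and 13.2 TPM in the *Alb-Cre-* mice (log2 fold change 0.02, SE 0.14). Glucosidase II is a dimer of a catalytic subunit, encoded by *Ganab*, and a subunit that holds it in the ER, encoded by *Prkcsh*. *Ganab* was at 46.8, 44.8 and 40.5 TPM in the *Alb-Cre+* mice and 42.3, 37.6 and 39.4 TPM in the *Alb-Cre-* mice (log2 fold change 0.15, SE 0.12), and *Prkcsh* at 55.3, 50.2 and 46.8 TPM in the *Alb-Cre+* mice and 57.2, 56.7 and 52.1 TPM in the *Alb-Cre-* mice (log2 fold change -0.13, SE 0.12). Each gene overlapped between genotypes, with differences of opposite sign.

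Their ratio, which no scaling of the libraries can alter, did not overlap. *Ganab* over *Prkcsh* was 0.847, 0.891 and 0.867 in the *Alb-Cre+* mice and 0.740, 0.663 and 0.755 in the *Alb-Cre-* mice, with means of 0.868 ± 0.0223 and 0.720 ± 0.0493 (SD, n = 3, exact permutation p = 0.1, two-sided, the smallest possible). It was the one of 7 subunit or paralog ratios computed that separated the genotypes, and none of the ratios was planned beforehand. Of all 861 pairs that can be formed from the 42 genes, 76 (8.83%) had a ratio that did not overlap. The share over pairs of all genes was not computed, so this count has no background beside it. *Sec11c* was in 17 of the 76 pairs. These reuse the values of a gene already seen not to overlap, and they add nothing for it.

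More genes of the whole table were called for sex than for genotype. With genotype as covariate, a comparison added after the values were seen, 0.506% of all genes differed between female and male mice at an adjusted p under 0.01 (limma), but none of the 42 genes did. At an unadjusted p under 0.05 the share was 28.7% of all genes and 7 of the 42 (*Srp54a*, *Sec61a1*, *Sec61a2*, *Ssr1*, *Ssr3*, *Spcs1* and *Stt3b*), all higher in the female mice. *Sec61a2* had the largest difference (1.00 on the log2 scale, adjusted p = 0.06283). The median female-minus-male difference was 0.11 over the set and 0.26 over all genes. There were 2 female mice, and the Kupffer cell markers given above were high in both of them. This was not particular to Kupffer cells. Summed sinusoidal endothelial markers were at 183 and 156 TPM against 73.9 to 124 TPM in the male mice. Stellate cell markers were at 199.5 and 207 against 73.0 to 153 TPM, and plasma and B cell markers at 29.8 and 37.7 against 7.77 to 22.4 TPM. Cholangiocyte markers, at 39.2 and 36.2 against 15.0 to 59.2 TPM, overlapped. Sex and these features cannot be told apart.

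Promoters were read to show *Ssr4* and *Rpn2*, which did not overlap between genotypes, and the genes with a stress-response motif. RefSeq windows of 300 bases (250 before and 50 after the annotated start, GRCm38.p6) were at hand for 33 of the 43 names, and *Sec11c* was not among them, so its promoter was not searched. The ER stress response element, CCAAT and CCACG with 9 bases between them, is bound by ATF6 with NF-Y. Its CCACG part, the XBP1-type core TGACGTG and the cyclic AMP element TGACGTCA were searched too, all on both strands. The full element occurred in 1 gene of the set, *Alg12*, and in 0.137% of all 27025 genes with a window and 0.188% of the tested ones. CCACG, which is also part of the full element, occurred in 19 of 33 (57.6%) compared with 35.5% of all and 50.2% of tested genes. TGACGTG was found in *Mogs* alone (2.22% of all and 3.12% of tested genes), and TGACGTCA in none (2.03% and 3.36%). The windows of *Alg12* (chr15:88819269-88819568, minus strand) and *Mogs* (chr6:83115256-83115555, plus strand) are shown 5′ to 3′ with the motifs in capitals. Those of *Ssr4* (chrX:73786773-73787072, plus strand) and of both annotated starts of *Rpn2* (chr2:157278848-157279147 and chr2:157279176-157279475, plus strand) hold none of these motifs.
Alg12: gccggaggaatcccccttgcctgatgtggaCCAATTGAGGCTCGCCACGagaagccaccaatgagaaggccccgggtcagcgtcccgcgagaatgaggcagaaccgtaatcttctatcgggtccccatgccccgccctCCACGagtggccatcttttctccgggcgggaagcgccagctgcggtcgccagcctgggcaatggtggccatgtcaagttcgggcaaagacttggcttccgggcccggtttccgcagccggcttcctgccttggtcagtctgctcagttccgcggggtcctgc
Mogs: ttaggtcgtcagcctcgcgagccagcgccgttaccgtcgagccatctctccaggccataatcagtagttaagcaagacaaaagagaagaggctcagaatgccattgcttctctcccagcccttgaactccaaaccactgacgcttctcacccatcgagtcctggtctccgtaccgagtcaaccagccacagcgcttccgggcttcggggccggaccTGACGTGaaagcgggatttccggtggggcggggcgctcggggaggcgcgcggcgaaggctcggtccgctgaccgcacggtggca
Ssr4: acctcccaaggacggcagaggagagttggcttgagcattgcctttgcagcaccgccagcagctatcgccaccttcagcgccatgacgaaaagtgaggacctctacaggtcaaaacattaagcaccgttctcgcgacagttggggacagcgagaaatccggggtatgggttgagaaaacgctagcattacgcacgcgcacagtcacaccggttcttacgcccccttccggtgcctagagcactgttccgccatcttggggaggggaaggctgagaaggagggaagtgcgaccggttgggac
Rpn2 first start: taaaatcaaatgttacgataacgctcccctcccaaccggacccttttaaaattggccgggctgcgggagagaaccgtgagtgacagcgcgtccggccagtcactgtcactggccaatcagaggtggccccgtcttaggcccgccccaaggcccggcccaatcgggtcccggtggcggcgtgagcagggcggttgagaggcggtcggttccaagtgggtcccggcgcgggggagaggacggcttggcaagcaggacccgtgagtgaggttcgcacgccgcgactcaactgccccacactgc
Rpn2 second start: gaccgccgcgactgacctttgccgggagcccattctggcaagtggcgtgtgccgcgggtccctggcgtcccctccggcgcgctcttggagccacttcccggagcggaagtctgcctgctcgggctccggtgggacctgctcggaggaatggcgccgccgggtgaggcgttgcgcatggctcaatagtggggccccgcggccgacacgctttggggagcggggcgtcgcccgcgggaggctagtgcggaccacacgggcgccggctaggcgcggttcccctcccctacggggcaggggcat

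In *Alg12* the element lies 220 to 202 bases before the start, with a further CCACG 112 to 108 bases before it, and in *Mogs* the core lies 34 to 28 bases before the start. A match of letters is a description and no evidence that a factor binds. *Alg12*, an ER mannosyltransferase, was at 4.34, 4.83 and 2.46 TPM in the *Alb-Cre+* mice and 4.47, 2.94 and 3.72 TPM in the *Alb-Cre-* mice (log2 fold change 0.03, SE 0.31, 95% interval -0.71 to 0.76), so that its genotypes overlapped, as did those of *Mogs*.

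The neighbouring genes of the pathway were described from 4 further lists, in none of which a gene was called or had an unadjusted p under 0.05. Other translocation factors numbered 17, with 4 positive and 13 negative differences and a median of -0.09. Of these, 5 did not overlap and were lower in the *Alb-Cre+* mice (*Tmem208*, *Ccdc47*, *Nomo1*, *Ncln* and *Bcap31*), against 2.71% of all genes in that direction, but after median of ratios scaling all 5 overlapped. *Hspa5*, which encodes the chaperone BiP that pulls chains through the channel, was at 452, 627 and 346 TPM in the *Alb-Cre+* mice and 343, 359 and 321 TPM in the *Alb-Cre-* mice (log2 fold change 0.44, SE 0.22, unadjusted p = 0.08306, and 0.03061 with the replicate block). Mouse 3 of the *Alb-Cre+* group lay within the control range, and after scaling it did not, at 409 against 333 to 345 TPM.

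Insertion factors of the EMC and GET routes, 17 genes, had 6 positive and 11 negative differences and a median of -0.04. *Emc1*, a large lumenal EMC subunit, was at 4.15, 4.07 and 3.67 TPM against 3.37, 2.88 and 2.98 TPM (log2 fold change 0.36, SE 0.19), without overlap. *Emc3* was without overlap in the lower direction, and both overlapped after scaling. Other N-glycosylation genes, 22 in all, had 8 positive and 14 negative differences, a median of -0.05 and none that separated the genotypes, while after scaling *Alg13* and *Gmppa* did, 1 in each direction.

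Quality control of glycoproteins, with 10 genes, had 6 positive and 4 negative differences and a median of 0.13. Its pair medians were 0.03, 0.52 and -0.31, so the direction was not shared by the pairs. *Uggt1*, which returns glucose to misfolded glycoproteins, was at 7.70, 9.75 and 7.46 TPM in the *Alb-Cre+* mice and 6.63, 5.41 and 6.96 TPM in the *Alb-Cre-* mice (log2 fold change 0.38, SE 0.19, unadjusted p = 0.08301). Its genotypes did not overlap before or after scaling.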

How the data were processed

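The deposited values were TPM per transcript, made by the authors against GRCm38. The submitters' processing notes name STAR, RSEM, Salmon and DESeq2, with versions not given in the sources used here. The authors' DESeq2 table (mean normalised counts, log2 fold changes, errors and p-values) was not used. TPM of 116748 transcripts was summed by symbol to 35703 genes, with 163 unnamed transcripts as rows of their own. Each mouse sums to 1000000 TPM, so read depth is unknown and no counting interval can be given.

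A gene was tested if its mean reached 0.1 TPM. Values of log2(TPM + 0.1) entered limma 3.58.1 (R 4.3.3) with genotype alone, a trended prior and Benjamini-Hochberg adjustment over 14219 genes, and calls were made at an adjusted p under 0.01. The script was tested on simulated data. Single values were compared by exact permutation (scipy 1.17.1). The study's methods describe littermate controls, but which mice shared a litter is not given in the sources used here, and p-values measure the spread between these mice. Whether replicate numbers pair the mice is not given in the labels. Deviations from group means correlated at 0.37, 0.59 and 0.37 within same-numbered pairs, and at -0.44 to 0.17 between different numbers. Pair 2 holds both female mice, so sex and pairing cannot be told apart there. The replicate block and the pair differences therefore rest on an assumed pairing. Shared stretches were counted in GENCODE transcripts of the mouse.

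Values in each mouse are given for genes chosen by role, by lack of overlap, by an unadjusted p under 0.05 and by the 5 largest differences, and for the 3 pathway-list genes with the smallest p. *Alg2*, *Alg12*, *Spcs3*, *Ostc*, *Sec61a2* and the sex comparison were added after values were seen. The ratios between genes, *Ganab* over *Prkcsh* among them, and the count over pairs of genes were not planned beforehand either. The members and lists were chosen with earlier results of these data known.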

Additional observations from a re-analysis of the deposited data

How the results depend on the processing

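No gene of the set was called under any alternative, and the median log2 fold change of the set, -0.009, stayed between -0.106 (without *Alb-Cre+* replicate 2, all genes -0.124) and 0.096 (without *Alb-Cre+* replicate 3, all genes 0.112). The number of its genes with an unadjusted p under 0.05, 1 as reported, was 0 after median of ratios scaling and 0 when the prior variance was not trended, and 0 to 1 with a mouse left out. The number that did not overlap between genotypes, 3, was 4 without mitochondrial genes, 2 after median of ratios scaling and between 4 and 11 with a mouse left out, where fewer mice overlap less easily (1360 to 2861 of all genes, from 696). Over all genes 0 to 1 were called with a mouse left out, the one being the gene model *Gm10240* without *Alb-Cre+* replicate 1. In the fit with the replicate block, 0 genes of the set were called, 1 had an unadjusted p under 0.05 and 3 did not overlap, while over all genes 666 against 249 had an unadjusted p under 0.05. The block changed no other call. Pseudocounts of 1 and 0.01 TPM, no filter, a minimum of 1 TPM, sex as covariate and an adjusted p under 0.05 changed none of the counts within the set. Of 672 values of single genes over the alternatives, 40 changed sign and none moved by as much as the SD between mice. For most alternatives the latter was fixed in advance and is no measure of stability. Leaving out 1 of 3 mice cannot move a difference that far. The replicate block, sex as covariate, the filters, the untrended prior and the other threshold do not alter the estimates. TPM without read counts limits what can be said of the low genes, such as *Sec61a2* and *Alg6*.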
